A study of Mus musculus with 16 samples.

Results

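The genes encoding 9 transcription factors of the neural lineage, Sox1, Sox2, Pax6, Lhx2, Neurog1, Neurog2, Neurod1, Olig2 and Nkx2-2, were followed through DNA methylation in immortalised mouse embryonic fibroblasts. The sites measured are CpGs, the CG dinucleotides at which mammalian DNA is methylated, and a site belonged to a gene when it lay between 2 kb upstream of the annotated start and 2 kb past the annotated end (GENCODE M21, mm10). This rule uses the names and positions of the genes and no methylation value. These windows held 1201 of the 1203687 CpGs that had at least 10 reads in each of the 16 libraries. Between 12.0% (Sox1) and 40% (Neurog1) of the CpGs of the reference sequence in a window were measured.

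The measurement was target capture bisulfite sequencing, in which probes enrich chosen regions and bisulfite conversion separates methylated from unmethylated cytosines. MEF-1 and MEF-2 are cultures from E13.5 C57BL/6J embryos, immortalised by passaging through crisis with no transgene, and the parental lines differ in sex. From each culture single cells were sorted and grown into 7 clonal lines, so the design holds 1 parental and 7 clonal libraries per family and asks how a methylation pattern is kept or changed when 1 cell is expanded into a culture. A clonal line is 1 library, and a family stands for 1 culture, so that a difference between the families cannot be told apart from a difference between embryos, sexes or culture histories. Library totals ran from 59243669 to 90633091 CpG calls, and the libraries had medians of 26 to 39 reads per CpG. Over the neural gene CpGs the median was 21 to 32 reads per clonal line. Mean reads per CpG of a chromosome, relative to the other chromosomes and to the median library, were low for chromosome 2 in MEF-2 line 3 (0.784), which holds Pax6, Lhx2, Neurod1 and Nkx2-2, and for chromosome 16 in MEF-1 line 6 (0.780), which holds Olig2. MEF-1 lines 1, 4 and 5 stood apart: 0.751% to 0.930% of all CpGs passed the test for a gain over the parental library there, against 2.38% to 2.64% in the other 4 MEF-1 lines. Promoters of fibroblast genes held no more than 1 measured CpG, so the label of the cells could not be checked on them. Of 13 marker genes of epithelial, blood, endothelial, neural and pluripotent cells, 11 had a measured promoter, 8 of which were higher in MEF-1. The lines of the families did not overlap in 5 of these (Epcam, Krt8, Pecam1, Gfap and Nes), from 6.90% against 1.45% in Nes to 57.8% against 19.2% in Epcam, all higher in MEF-1. Ptprc (63.9% against 77.3%), Tubb3 (37.1% against 43.4%) and Nanog (66.4% against 74.0%) were higher in MEF-2, with overlapping lines. The share without overlap was not computed over all promoters, and over all gene windows it was 31.2%. The part of these differences in those of the 9 genes was not tested. All means below are given ± SD over 7 lines, and tests between families measure the spread between these lines.

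Sox1 and Sox2 encode HMG-box factors of neural progenitors, and Sox2 is also a factor of pluripotent cells. Pax6 and Lhx2 pattern the eye and the forebrain. Neurog1, Neurog2 and Neurod1 are basic helix-loop-helix factors that start neuronal differentiation, Olig2 marks motor neuron and oligodendrocyte progenitors, and Nkx2-2 the ventral progenitors beside the floor plate. Genes of this kind sit in unusually long CpG islands, stretches rich in CG that are unmethylated in most tissues, and in cells of other lineages they are typically held silent by Polycomb group complexes, which mark the islands with methylated histone H3 rather than with DNA methylation.

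The sequences that the results turn on are shown with the CpGs concerned in capitals, 5′ to 3′ along the gene (GRCm38, the assembly of mm10). Distances are counted in bp from the annotated start of the gene. The first, from the coding exon of Sox2 (chr3:34650496-34650679, plus strand), is the longest run of low methylation in that gene, and its capitals mark 19 CpGs of the run.
Sox2 coding exon, unmethylated run: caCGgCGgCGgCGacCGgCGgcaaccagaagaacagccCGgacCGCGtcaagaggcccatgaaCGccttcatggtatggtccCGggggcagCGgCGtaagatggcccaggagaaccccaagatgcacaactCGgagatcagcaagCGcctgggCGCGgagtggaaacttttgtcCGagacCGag
The next stretch follows it in the same exon (chr3:34650695-34650922, plus strand). Its capitals mark the 3 CpGs, at 310, 454 and 496 bp, that were nearly or fully methylated in a single clonal line, among 24 CpGs.
Sox2 coding exon, single-line gains: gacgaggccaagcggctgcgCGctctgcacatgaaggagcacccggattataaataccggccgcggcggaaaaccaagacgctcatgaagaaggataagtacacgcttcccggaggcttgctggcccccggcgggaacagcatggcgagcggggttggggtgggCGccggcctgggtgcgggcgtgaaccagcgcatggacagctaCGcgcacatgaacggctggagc
In the coding exon of Neurog1 (chr13:56251563-56251682, minus strand) the capitals mark 2 CpGs with large gains, at 502 and 580 bp, among 15, and most of the CpGs between them gained together in another line.
Neurog1 coding exon, gains: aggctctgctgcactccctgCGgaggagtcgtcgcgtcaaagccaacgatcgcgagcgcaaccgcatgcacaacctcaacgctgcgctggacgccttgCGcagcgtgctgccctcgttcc
An intron near the start of Pax6 (chr2:105669476-105669714, plus strand) holds many CpGs that differed between the families, and the capitals mark the 9 of 17 measured CpGs that passed the test.
Pax6 intron, family difference: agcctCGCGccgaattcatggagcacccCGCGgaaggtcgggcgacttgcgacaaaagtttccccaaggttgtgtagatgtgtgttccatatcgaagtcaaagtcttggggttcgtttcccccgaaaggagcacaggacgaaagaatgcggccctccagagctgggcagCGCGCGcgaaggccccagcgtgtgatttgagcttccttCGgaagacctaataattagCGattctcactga
Shorter stretches show single CpGs, in capitals, that were methylated in one family and nearly unmethylated in the other, or intermediate there at the second capital of Neurod1, and that stand in DNA with few other CpGs, except in Nkx2-2. They lie upstream of Neurog2 (chr3:127632174-127632255, plus strand), in an intron of Lhx2 (chr2:38355958-38356039, plus strand), in an intron of Neurod1 (chr2:79455201-79455390, minus strand) and in an intron of Nkx2-2 (chr2:147188109-147188190, minus strand).
Neurog2 upstream, family difference: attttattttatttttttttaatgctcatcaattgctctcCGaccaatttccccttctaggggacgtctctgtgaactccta
Lhx2 intron, family difference: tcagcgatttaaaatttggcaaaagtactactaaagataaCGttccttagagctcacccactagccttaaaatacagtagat
Neurod1 intron, family difference: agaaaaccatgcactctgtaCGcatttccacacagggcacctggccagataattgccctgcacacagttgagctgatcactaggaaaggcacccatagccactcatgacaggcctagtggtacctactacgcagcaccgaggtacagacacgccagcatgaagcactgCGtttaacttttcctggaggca
Nkx2-2 intron, family difference: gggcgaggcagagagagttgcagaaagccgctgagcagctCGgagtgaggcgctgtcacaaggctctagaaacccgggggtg

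All 9 windows were low in methylation but not unmethylated. The mean level over the 1201 CpGs was 18.1% in the MEF-1 parental library and 19.3% ± 0.384 in its clonal lines, and 14.3% in the MEF-2 parental library and 16% ± 1.083 in its lines. In the parental libraries the median of the 9 windows was 14.8% (MEF-1) and 11.3% (MEF-2), beside 35.5% and 33.75% over 15020 windows of protein-coding genes built in the same way. Neurog2 was the lowest and Sox2, Pax6 and Lhx2 were the highest in MEF-1. Each level below is the mean of the CpG levels in the window, the coordinates are those of the gene without its flanks, and the test compared summed reads between the clonal lines with a quasi-binomial model adjusted over all windows.

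Among the neural progenitor genes, the Sox1 window (chr8:12395295-12400126, plus strand; 55 CpGs) stood at 12.2% in the MEF-1 parental library and ran from 9.33% through a median of 12.1% to 14.9% in its lines. In MEF-2 it stood at 6.84% in the parental library and at 5.82%, 8.77% and 10.6% as the lowest, median and highest line. The ranges overlapped, yet the MEF-1 lines were the higher (adjusted p = 0.000799). The Sox2 window (chr3:34650405-34652461, plus strand; 122 CpGs) was at 24.7% in the MEF-1 parental library and at 22.3%, 24.1% and 25.9% in the lowest, median and highest line. In MEF-2 the parental library was at 13.9% and the lines at 14.5%, 15.6% and 20.4%. Every MEF-1 line lay above every MEF-2 line (mean 24.3% ± 1.42 against 17.2% ± 2.58, adjusted p = 2.68e-05), and each MEF-2 line lay above its parental library.

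Both forebrain and eye genes were higher in MEF-1. Pax6 (chr2:105668900-105697364, plus strand; 277 CpGs) was at 24.5% in the MEF-1 parental library, with 24.0%, 26.9% and 28.3% as the lowest, median and highest line. In MEF-2 it was at 19.3%, and at 17.6%, 20.2% and 22.3% in the lines. Lhx2 (chr2:38339281-38369733, plus strand; 223 CpGs) was at 24.6% in the MEF-1 parental library, with lines at 24.8%, 25.85% and 27.6%. Its MEF-2 values were 18.7% in the parental library and 16.3%, 17.4% and 20.3% in the lines. In neither gene did the families overlap, and the MEF-1 lines were higher by 6.44 percentage points in Pax6 (adjusted p = 3.68e-05) and by 7.74 points in Lhx2 (adjusted p = 4.13e-05).

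Of the neuronal differentiation genes, Neurog1 and Neurog2 were low in both families and Neurod1 was higher. Neurog1 (chr13:56250478-56252163, minus strand; 74 CpGs) was at 9.46% in the parental library of MEF-1 and 9.29% in that of MEF-2, with medians of 8.83% and 10.3% over the lines and overlapping ranges of 7.41% to 13.2% and 7.51% to 15.9% (adjusted p = 0.408). Neurog2 (chr3:127633135-127635631, plus strand; 88 CpGs) was at 5.43% and 4.54% in the parental libraries, with line medians of 5.84% and 4.79% and ranges of 5.18% to 6.87% and 3.03% to 6.90% (adjusted p = 0.208). Neither gene passed the test. Neurod1 (chr2:79452521-79456751, minus strand; 37 CpGs) was lower in each parental library than in any of its lines, at 17.2% against 19.3% to 27.6% in MEF-1 and at 11.3% against 15.4% to 19.1% in MEF-2. With a single parental library per family this gap has no test. The Neurod1 families did not overlap (22.2% ± 2.75 against 16.6% ± 1.303, exact permutation test, two-sided, p = 0.000583, the smallest that 3432 splits of 14 lines can give), but over summed reads, where deep CpGs weigh more, they differed by 2.67 points and did not pass (adjusted p = 0.187). With at least 20 reads per library 18 of the 37 CpGs were left, and these differed by -1.293 points (MEF-1 minus MEF-2, quasi-binomial test, adjusted p = 0.691). The coding island gave the same value, so CpGs outside it, among them those of the intron, no longer counted. This is a change in the CpGs compared, and no turn at the same CpGs.

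Of the ventral progenitor genes, Olig2 (chr16:91225457-91228677, plus strand; 112 CpGs) was at 7.53% and 6.51% in the parental libraries, with line medians of 9.49% and 10.85% and ranges of 7.99% to 12.4% and 5.89% to 14.97% (adjusted p = 0.669). Nkx2-2 (chr2:147177546-147194243, minus strand; 213 CpGs) was at 14.8% in the MEF-1 parental library and at 14.3%, 15.6% and 16.3% in the lowest, median and highest line. In MEF-2 it was at 15.5% in the parental library and at 17.2%, 18.6% and 21.85% in the lines, all of them above every MEF-1 line. Nkx2-2 was the only window of the 9 that was higher in MEF-2 and passed (15.5% ± 0.786 against 19.1% ± 1.52, adjusted p = 0.001475).

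**Figure D1:**
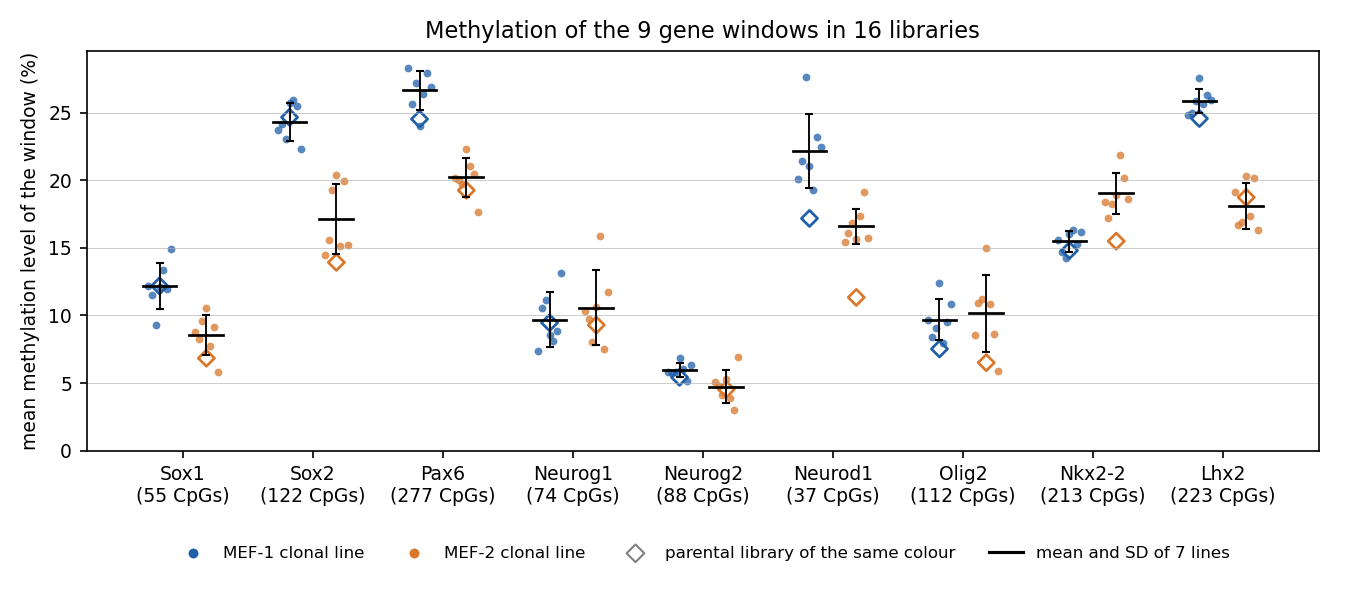
Mean methylation level (%) over the measured CpGs of each gene window, by gene, for the parental library (diamond) and the 7 clonal lines (points, with their mean and SD) of MEF-1 and of MEF-2. The families separate in Sox2, Pax6, Neurod1 and Lhx2 with MEF-1 higher and in Nkx2-2 with MEF-2 higher, and overlap in the other 4 genes.

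In all, 5 of the 9 windows differed between the families, 4 higher in MEF-1 and 1 in MEF-2. This is not far from the background: 44.5% of all gene windows passed the same test, 29.1% with MEF-1 the higher and 15.4% with MEF-2. The families did not overlap in 5 of the 9, Neurod1 in place of Sox1, against 31.2% of all windows.

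The windows overlapped 31 CpG islands of at least 500 bp, called from the reference sequence, of which 26 held at least 5 measured CpGs. Their parental levels were higher than is common for islands. The median parental level over the 26 was 11.3% (MEF-1) and 7.45% (MEF-2), against 3.47% and 3.03% over all 13042 islands fitted. Both parental libraries were under 10% in 12 of the 26 (46.2%), against 67.2% of all islands, and under 5% in 1 only, the island of Neurog2, against 53.5% of all. Lines of a family also spread more, with a median SD of 3.15 points (MEF-1) and 3.33 points (MEF-2) beside 1.14 and 1.26 over all islands. Such an SD varies with the level and the reads of an island, and the islands were not matched for either. Of the 26 islands 11 passed the family test, 42.3% against a background of 33.9%. The split was uneven, with 10 higher in MEF-1 (21.0% of all islands) and 1 higher in MEF-2 (12.9% of all). The lines of the 2 families did not overlap in 5 islands, against 15.3% of all islands. An island was taken whole where it crossed the edge of a window, as the upstream islands of Neurod1 and Olig2 did. With the CpGs inside the windows alone, 25 islands were left and 10 passed (40%, background 33.8%), 9 of them higher in MEF-1, and the upstream island of Neurod1 dropped out.

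**Figure D2:**
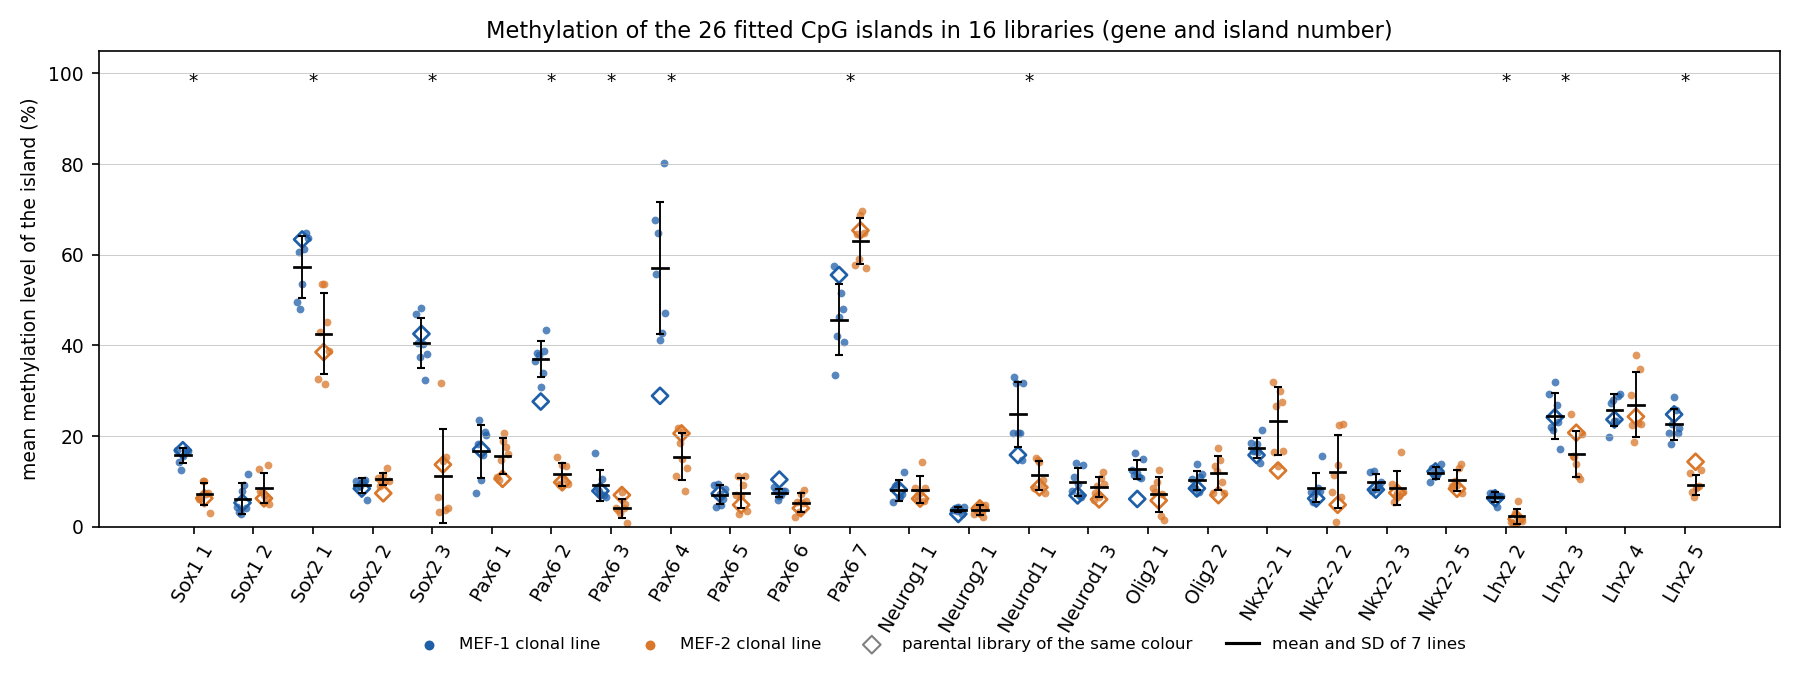
Mean methylation level (%) of the 26 islands with at least 5 measured CpGs, by gene and island in order along each gene, for the parental library (diamond) and the clonal lines (points, with their mean and SD) of each family, with Neurod1 island 1 lying outside its window; an asterisk marks an island that passed the family test. Most islands near a gene start sit below 20% in both families, while Pax6 islands 2 and 4, Sox2 island 3 and Lhx2 island 5 separate with MEF-1 higher and Pax6 island 7 is higher in MEF-2.

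Pax6, which is transcribed from several promoters, had the most varied islands. The island at the annotated start (chr2:105668641-105670122, from -259 to 1222 bp; 49 CpGs in intron, UTR and upstream sequence) was at 27.6% in the MEF-1 parental library, and its lines ran from 30.7% through 37.9% to 43.4%. In MEF-2 the parental library was at 9.83% and the lines at 9.14%, 10.5% and 15.45%. The families were 25.5 points apart (37.1% ± 3.98 against 11.6% ± 2.53, adjusted p = 6.30e-06), and 23 of the 49 CpGs passed the test singly, among them the 9 capitals of the Pax6 intron sequence. The antisense gene Pax6os1 overlaps this island. An intronic island from 5330 to 6027 bp (8 CpGs) differed by 41.6 points (57.1% ± 14.5 against 15.5% ± 5.20, adjusted p = 0.000192), although its parental libraries were close, at 28.9% and 20.6%. All 7 MEF-1 lines, 41.1% to 80.1%, lay above their parental library there, and MEF-2 lines ran from 7.93% to 21.9%.

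The island that holds 5 annotated transcript starts, from 6112 to 6774 bp (23 CpGs), was low in both families, at 7.34% and 4.83% in the parental libraries and 7.08% ± 2.09 and 7.39% ± 3.34 in the lines (adjusted p = 0.866). It contains the longest low run of the gene. The next island downstream, from 7011 to 8052 bp, was likewise low (7.45% ± 0.940 against 5.32% ± 2.05, adjusted p = 0.167). Farther into the gene the direction turned: the intronic island from 12299 to 12869 bp (22 CpGs) was the only one of the 26 that passed with MEF-2 higher, at 45.7% ± 7.83 against 63.1% ± 5.13 (adjusted p = 0.000758). That island also holds 1 annotated transcript start. Its parental libraries already stood at 55.6% and 65.4%.

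**Figure D3:**
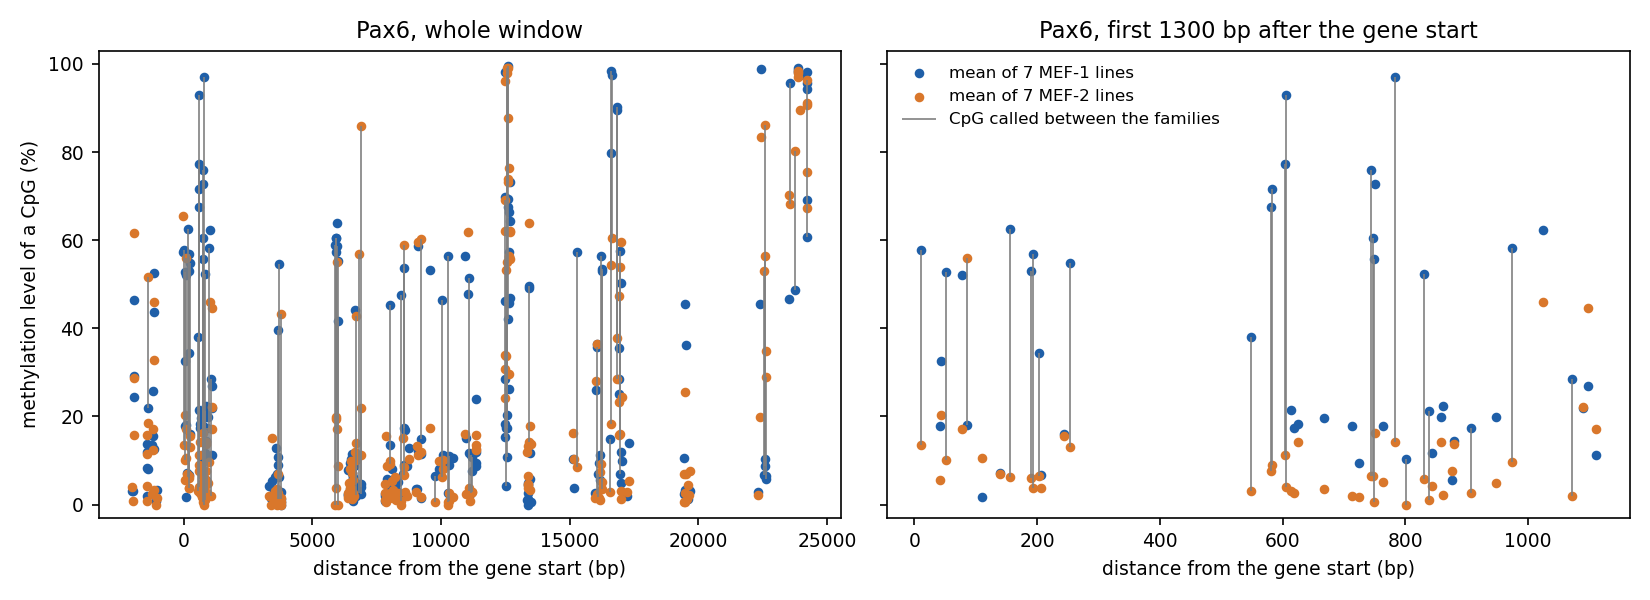
Methylation level (%) of each measured CpG of Pax6 against its distance (bp) from the annotated start, as the mean of the 7 clonal lines of each family, for the whole window (left) and the stretch after the start (right), with a grey line joining the means of a CpG that passed the family test. The MEF-1 means stand above the MEF-2 means at most CpGs of the island at the start (37.1% against 11.6% on average), and both are low across the island from 6112 to 6774 bp.

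In Sox2 a low coding exon stood between more methylated flanks. The island over the start and the single coding exon (chr3:34649252-34651530; 74 CpGs) was at 8.44% in the MEF-1 parental library and 9.13% ± 1.57 in its lines, and at 7.40% and 10.6% ± 1.29 in MEF-2 (adjusted p = 0.376). Of the 182 reference CpGs of this island 74 were measured, 71 in the coding exon and 3 upstream. No CpG between -1000 bp and the start was measured, so the level at the start itself is not known. The 71 CpGs of the coding exon alone averaged 6.23% and 5.99% in the parental libraries. Upstream, the island from -1840 to -1195 bp (20 CpGs) was at 63.4% in the MEF-1 parental library with lines from 48.0% to 64.9%, and at 38.5% in MEF-2 with lines from 31.4% to 53.6%. It passed the test although the ranges overlapped (57.4% ± 6.88 against 42.6% ± 8.99, adjusted p = 0.0182), and it did not pass without MEF-1 lines 1, 4 and 5 (adjusted p = 0.0544), with at least 20 reads (0.241) or with the line number as a replicate block (0.0761). Downstream, the island from 2692 to 3439 bp (8 CpGs) was at 42.6% in the MEF-1 parental library with lines from 32.3% to 48.3%, and at 13.7% in MEF-2 with lines from 3.16% to 31.8%. These ranges came close without overlapping (40.6% ± 5.57 against 11.3% ± 10.4, adjusted p = 0.00284). Sox2 lies inside the long transcript Sox2ot, so its flanks are also part of that locus.

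Sox1, a single-exon gene inside the transcript Sox1ot, had 1 island that passed with MEF-1 higher. That island (chr8:12395107-12398005; 33 CpGs) was at 16.9% in the MEF-1 parental library with lines from 12.6% to 17.2%, and at 6.32% in MEF-2 with lines from 3.01% to 10.2% (15.7% ± 1.68 against 7.18% ± 2.48, adjusted p = 6.05e-05). The 8 CpGs of the coding exon averaged 13.5% ± 2.90 and 13.9% ± 5.35 in the lines. The 26 CpGs of the untranslated regions averaged 16.1% ± 1.95 and 4.91% ± 1.65, a difference that came from those past the coding CpGs. The 10 within 1000 bp of the start averaged 4.204% in the MEF-1 lines and 6.757% in the MEF-2 lines, with overlap. The 16 between 2000 and 4000 bp averaged 23.46% and 3.754%, without overlap. Of the 302 reference CpGs of the island 33 were measured, and the first lay at 638 bp.

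In Lhx2 several islands lay wholly or mainly in introns by their measured CpGs. The intronic island from 16986 to 18708 bp (chr2:38356267-38357989; 26 CpGs) ran from 18.3% to 28.6% in the MEF-1 lines and from 6.58% to 12.6% in the MEF-2 lines, with parental libraries at 24.8% and 14.3% (22.6% ± 3.49 against 9.28% ± 2.19, adjusted p = 3.98e-05). The intronic island from 8611 to 9288 bp (14 CpGs) was low in both and still differed, at 6.51% ± 1.06 against 2.28% ± 1.69 (adjusted p = 0.00444). The island from 11461 to 13164 bp holds 2 annotated transcript starts. Of its 143 reference CpGs 8 were measured, 6 in an intron and 2 in untranslated sequence. It differed by 8.46 points (adjusted p = 0.0122), a call that was lost with the line number as a replicate block (adjusted p = 0.0513). The island over a coding exon, from 15102 to 15970 bp (43 CpGs), was at 23.7% and 24.3% in the parental libraries and at 25.7% ± 3.52 and 26.9% ± 7.18 in the lines, and did not pass (adjusted p = 0.992). Over the whole gene, the 140 intronic CpGs averaged 25.03% ± 1.56 and 14.1% ± 1.10 and the 17 CpGs of untranslated regions 39.0% ± 2.75 and 21.5% ± 3.64, while the 55 coding CpGs averaged 18.9% ± 2.51 and 20.03% ± 4.79.

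Islands of the neuronal differentiation genes were mostly low and shared. Among these genes Neurog2 had the least methylated island (chr3:127632247-127634837, 73 CpGs). It was at 2.84% and 4.06% in the parental libraries and 3.81% ± 0.585 and 3.67% ± 1.04 in the lines (adjusted p = 0.723). The single island of Neurog1 (chr13:56251209-56252664; 63 CpGs) was at 8.19% and 6.21% in the parental libraries and 8.04% ± 2.29 and 8.17% ± 2.95 in the lines (adjusted p = 0.969). Neurod1 had a coding island at 6.93% and 6.05%, whose lines averaged 9.94% ± 3.07 and 8.76% ± 2.24 (adjusted p = 0.833). Only its upstream island (chr2:79458734-79459357; 18 CpGs) passed, at 24.8% ± 7.25 against 11.4% ± 3.23 (adjusted p = 0.0130), with lines from 14.8% to 33.0% and from 7.53% to 15.1%. All 18 CpGs of this island lie beyond the 2 kb edge of the window, inside which it has 18 bp, so they are not among the 1201. The Neurod1 locus overlaps the gene models Cerkl and Gm26755.

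None of the islands of Olig2 and Nkx2-2 passed on summed reads. The main Olig2 island (chr16:91224698-91227827; 77 CpGs) was at 8.46% and 6.99% in the parental libraries and 10.3% ± 2.12 and 11.8% ± 3.70 in the lines (adjusted p = 0.262). The upstream Olig2 island had parental levels of 6.14% and 5.80%, and every MEF-1 line lay above its parental library, from 10.8% to 16.4% (12.7% ± 2.14 against 7.13% ± 3.91 in MEF-2, adjusted p = 0.0646). It passed on mean levels (adjusted p = 0.0196 by exact permutation and 0.0163 by limma). In Nkx2-2 2 islands varied widely between MEF-2 lines. The one over the annotated start (16 CpGs) ran from 1.04% to 22.65% there, with a parental level of 4.86% (8.60% ± 3.22 in MEF-1 against 12.2% ± 8.11, adjusted p = 0.338). The upstream one (16 CpGs) ran from 13.5% to 32.0% above a parental level of 12.4% (17.4% ± 2.24 in MEF-1 against 23.3% ± 7.46, adjusted p = 0.0865). The Nkx2-2 coding island (38 CpGs) was steady, at 11.9% ± 1.3 and 10.2% ± 2.34. The 143 intronic CpGs of Nkx2-2 averaged 17.5% ± 0.988 and 21.7% ± 1.57, and the families did not overlap there.

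The unmethylated core of each gene was taken as the longest run of neighbouring measured CpGs whose level pooled over all 16 libraries was under 10%. Such a run exists wherever a window holds a low CpG, so its presence is no result. Run lengths in other gene windows were not computed. Where the core lies depends on the limit in some genes: under 20% the longest run lay elsewhere in Sox2 (393 to 827 bp, over the gains at 454 and 496 bp), Nkx2-2 (597 to 1027 bp) and Lhx2 (29549 to 29975 bp), and with the parental libraries alone in Pax6 (1111 to 3642 bp), Olig2 (2879 to 3050 bp) and Nkx2-2 (15739 to 15971 bp). The cores held 8 (Neurod1) to 36 (Neurog2) CpGs and 136 in all. For Sox2 the core is the 19 CpGs of the first printed sequence, 93 to 271 bp past the start, with 3.27% and 3.95% in the parental libraries. Neurog1 had 11 CpGs within a stretch of 61 bp of its coding exon (2.56% and 1.79%), and Neurod1 had 8 CpGs in its coding exon (2.41% and 3.45%). Pax6 had 17 CpGs from 6385 to 6614 bp, in untranslated sequence at the internal transcript starts (4.75% and 3.62%), and Lhx2 had 12 in an intron (2.82% and 1.52%). Nkx2-2 had 12 in an intron, from 15315 to 15664 bp and outside its islands (3.98% and 3.51%). The core of Neurog2 ran over the start, and its 34 CpGs from -4 to 299 bp averaged 2.29% and 3.22% in the parental libraries and from 1.51% to 5.66% in single lines. Runs in Sox1, Neurog2 and Olig2 bridged unmeasured gaps of 2665, 675 and 415 bp; broken at gaps over 200 bp, the longest runs held 8, 34 and 10 CpGs, and those of Sox1 and Olig2 lay at other places in the gene, from 647 to 773 bp and from 2927 to 3050 bp. In the core of Nkx2-2 1 CpG passed the family test, and in the other 8 cores none did, but low pooled values chose these runs, so this count is a description.

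Low as they were, the cores were not uniform in single lines. In each core at least 1 CpG was intermediate or methylated in some line: the highest value was 81.8% for Sox1 (MEF-2 line 6), 75.0% for Olig2 (MEF-1 line 6, the line with low coverage of chromosome 16), both at CpGs that the broken runs do not hold, 62.5% for Sox2 (MEF-2 line 1) and 48.3% for Neurog1 (MEF-2 line 5). Over all 16 libraries, parental ones included, the share of single CpG values under 10% in a core ran from 86.2% (Olig2) to 96.9% (Neurod1).

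CpG by CpG, 243 of the 1201 sites differed between the families, 20.2% on a background of 20.2%, with 167 higher in MEF-1 (11.6% of all CpGs) and 76 higher in MEF-2 (8.53%). The median size of a called difference was 43.7 points. Pax6 had 78 (28.2% of its CpGs), Lhx2 52, Nkx2-2 47, Sox2 28, Olig2 12, Sox1 10, Neurod1 7, Neurog2 5 and Neurog1 4 (5.41%). In Nkx2-2 the calls were divided, with 20 higher in MEF-1 and 27 higher in MEF-2. Among CpGs with at least 10 others within 100 bp, called dense here, 78 of 607 passed (12.9%), against 8.19% of all dense CpGs in the table.

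The largest differences of several genes were close to complete. At the CpG in capitals upstream of Neurog2 (-921 bp), 116 of 117 reads of the MEF-1 lines were methylated and 9 of 101 of the MEF-2 lines (99.4% ± 1.51 against 7.76% ± 11.2, adjusted p = 5.11e-06). In Lhx2 the largest was at 13268 bp, in untranslated sequence, where 104 of 104 reads of the MEF-1 lines were methylated and 5 of 121 of the MEF-2 lines (adjusted p = 4.03e-07). The Lhx2 CpG in capitals, at 16717 bp, was the third by size, at 97.4% ± 3.38 against 7.23% ± 5.61 (adjusted p = 1.32e-07), with parental levels of 76.7% and 10.9%. Pax6 at 606 bp, within the printed intron, was at 92.9% ± 13.9 against 3.89% ± 5.68 (adjusted p = 5.78e-05). At these 4 sites the lines of the families did not overlap. Past the end of Sox2, at 3688 bp, the MEF-1 lines ran from 89.3% to 100.0% and the MEF-2 lines from 0% to 23.1% (adjusted p = 4.11e-06).

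Sites of the opposite direction were found in the same genes. The first capital of the Neurod1 sequence, at 1382 bp, was at 7.20% ± 8.43 in MEF-1 and 95.0% ± 4.96 in MEF-2 (adjusted p = 1.65e-06), and the second, at 1530 bp, was at 99.4% ± 1.51 and 50.0% ± 19.4 (adjusted p = 0.000154). They lie in the same printed intron and differ in opposite directions. In Nkx2-2 the capital at 6094 bp was at 5.56% in the MEF-1 parental library and 46.2% in the MEF-2 parental library, and the lines stood at 10.02% ± 19.02 and 92.3% ± 5.13 (adjusted p = 0.000350). MEF-1 line 6, at 52.6%, was the exception among the MEF-1 lines. Pax6 at 6880 bp was at 2.45% ± 2.66 and 85.9% ± 24.3 (adjusted p = 0.000324), with MEF-2 line 5 at 31.2% apart from the other 6 at 91.7% or more.

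At other sites 1 family had intermediate levels in most or all of its lines. Neurod1 at 1732 bp ran from 46.2% to 57.9% in the MEF-1 lines, with 72 of 137 reads methylated, and had 0 methylated among 128 reads of the MEF-2 lines, a count that allows up to 2.34% (adjusted p = 7.57e-06). Neurog1 at -1983 bp was at 2.74% ± 3.31 in MEF-1 and at 50.3% ± 6.94 in MEF-2, where the parental library was at 58.1% (adjusted p = 2.59e-06). Sox1 at 2533 bp was at 56.5% ± 8.39 in MEF-1 and 3.18% ± 3.66 in MEF-2 (adjusted p = 2.28e-06), and Olig2 at 950 bp, in its coding exon, was at 5.38% ± 4.74 and 58.9% ± 21.0 (adjusted p = 0.000335), with MEF-2 lines from 31.25% to 95.45%. Such limits and read shares cover counting error only, since reads that are copies of 1 molecule are not independent.

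A gain was scored where a clonal line exceeded its own parental library at a CpG by Fisher's exact test, adjusted over all CpGs of that line. This test sets 1 library against 1 other and takes reads as independent molecules, so its p-values cover counting error only and say nothing of the spread between cultures. In MEF-1 174 of the 1201 CpGs (14.5%, background 8.57%) gained in at least 1 line, and in MEF-2 360 (30.0%, background 15.6%). Losses were fewer, 35 (2.91%, background 7.64%) and 69 (5.75%, background 12.5%). A loss needs a methylated parental library, and only 29 (MEF-1) and 19 (MEF-2) of the 1201 CpGs had a parental level from 90% to 100%. Losses were not compared at a fixed parental level, so these shares do not set the 9 genes apart. Most gained CpGs gained in a single line, 136 of 174 (78.2%, against 71.6% of gained CpGs over the table) and 281 of 360 (78.1%, against 63.0%). No CpG of the 9 genes gained in all 7 lines of a family. Over the table this was rare as well, at 92 of 103154 gained CpGs in MEF-1 and 391 of 188104 in MEF-2. Its absence here therefore does not set the 9 genes apart. By gene, the share of CpGs with a gain in MEF-2 ran from 10.2% (Neurog2) to 51.4% (Neurod1). Each of the 14 lines had a larger share of gains here than over all CpGs. The extremes were MEF-1 lines 4 and 5, both at 1.17% (0.751% and 0.930% over all CpGs), and MEF-2 line 4, at 7.24% (3.78%).

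**Figure D4:**
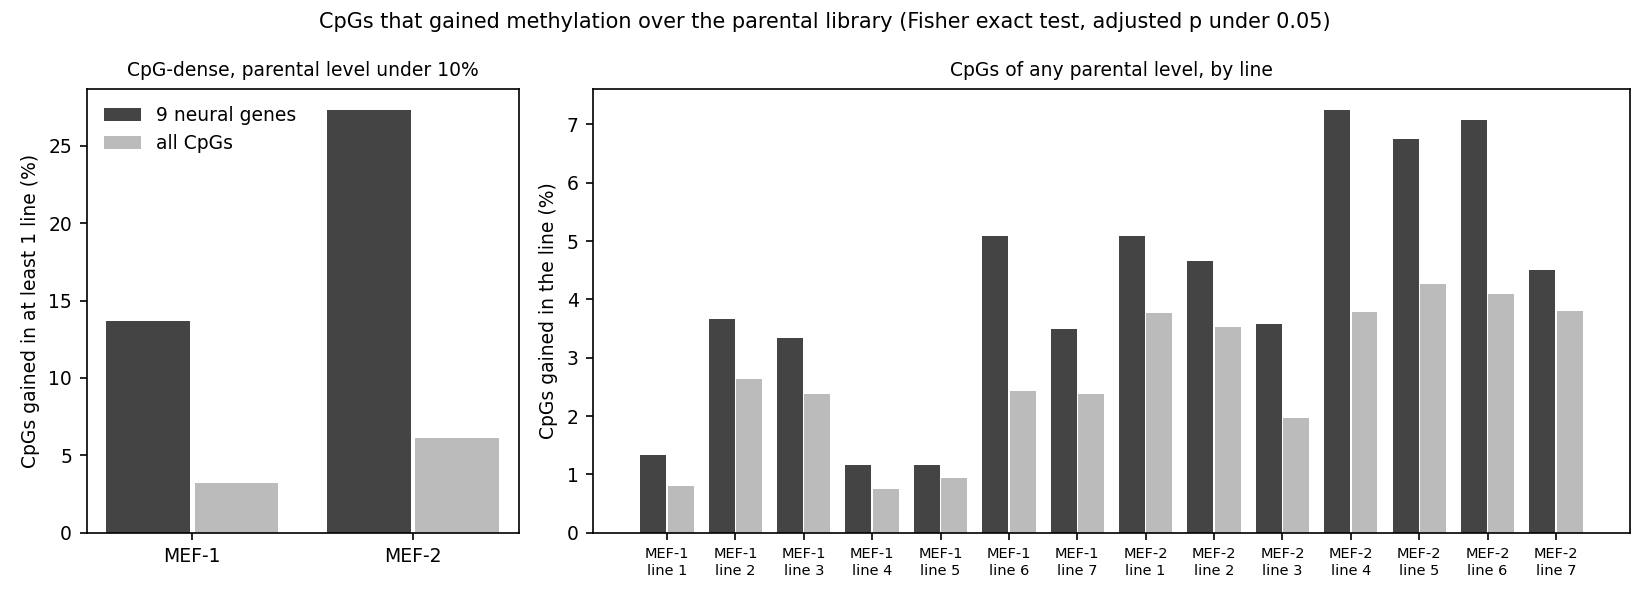
Share of CpGs (%) with a gain over the parental library for the CpGs of the 9 genes (dark bars) and for all CpGs of the table (light bars), on the left among dense CpGs with a parental level under 10% that gained in at least 1 line of a family (13.7% and 27.3% in the 9 genes), and on the right by clonal line among CpGs of any parental level. Every line has the larger share in the 9 genes, from 1.17% in MEF-1 lines 4 and 5 to 7.24% in MEF-2 line 4.

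The shares of gains were also compared at a fixed parental level. In MEF-1 678 CpGs (56.5%, background 40.3%) were under 10% in the parental library, and 94 of them gained (background 5.86%). In MEF-2 it was 758 (63.1%, background 40%), of which 212 gained (background 9.61%). All 7 lines also stayed under 10% at 281 of the 678 (41.4%, background 67.9%) and at 337 of the 758 (44.5%, background 72.6%). The same was seen within dense CpGs under 10% in the parental library: 54 of 393 gained in MEF-1 (13.7%, background 3.20%) and 117 of 429 in MEF-2 (27.3%, background 6.13%). The median reads per line were 26 in the 9 genes of either family, and 25 (MEF-1) and 26 (MEF-2) over all such CpGs. At CpGs gained in a single line from a parental level under 10%, both libraries were shallower in the 9 genes. The parental libraries had medians of 36 reads (MEF-1) and 37 (MEF-2) against 42 and 43 over all such gains. The gaining lines had medians of 30 and 29 against 35 and 34. Only 78 of the 607 dense CpGs (12.9%, background 45.6%) were under 10% in all 16 libraries, and over all CpGs of the 9 genes 142 were (background 21.1%), from 3.28% of the Sox2 CpGs to 33.0% of the Neurog2 CpGs.

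Several of the largest gains in a line were nearly complete at 1 CpG, with lower levels beside it. In the second Sox2 sequence, the capital at 310 bp was methylated in 32 of 32 reads of MEF-2 line 7, against 1 of 32 in the parental library and at most 12.1% in the other MEF-2 lines (Fisher's exact test, adjusted p = 4.34e-14). In the same line the next CpG, 23 bp on, was at 0% and the CpG 2 bp before it at 22.6%. The MEF-1 family was different at this site, with a parental level of 20% and lines from 26.9% to 57.8%. The capitals at 454 and 496 bp gained in MEF-2 line 6, to 93.3% (28 of 30 reads) and 100.0% (32 of 32 reads). Their neighbours on either side, within 15 bp, stood between 3.23% and 41.9% in that line.

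**Figure D5:**
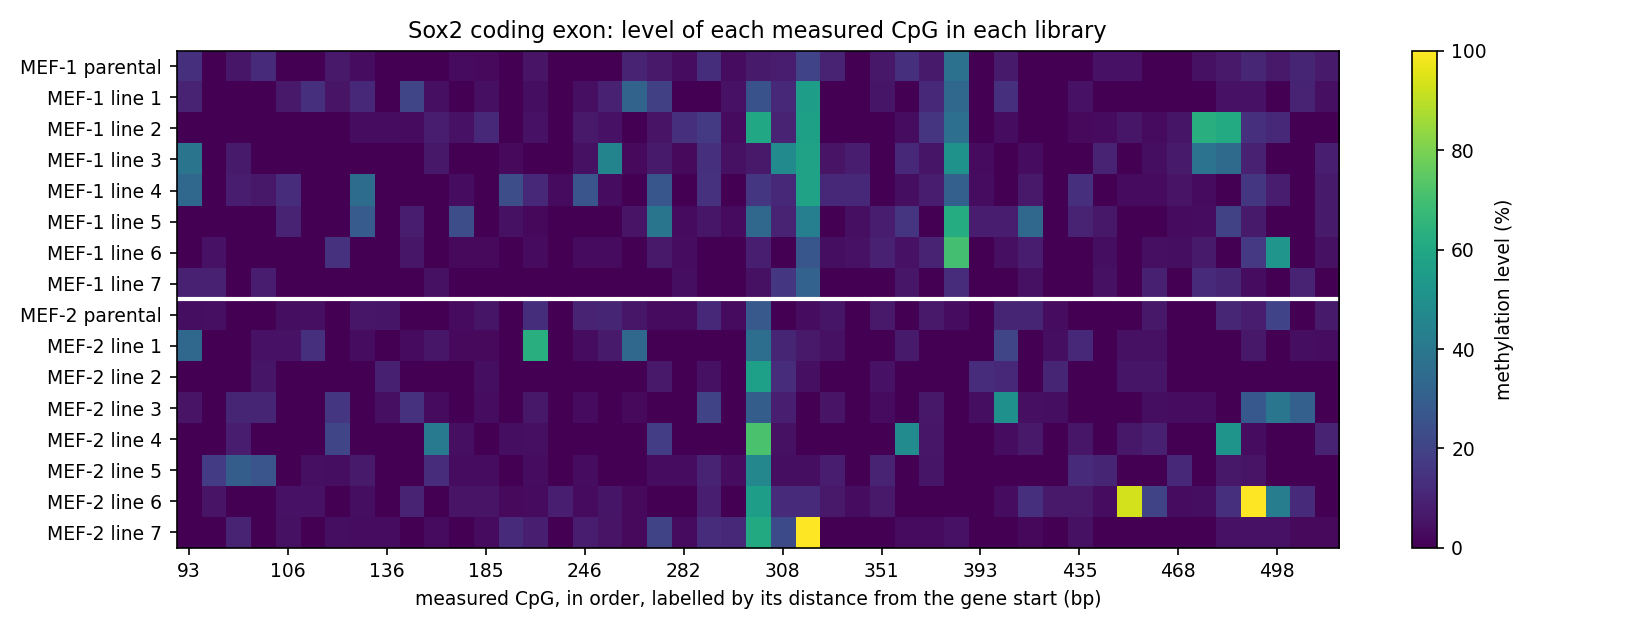
Methylation level (%, colour scale) of each measured CpG of the first part of the Sox2 coding exon, in order and labelled by distance (bp) from the annotated start, with a row for the parental library and each clonal line of both families. Most cells are near 0, and the bright cells of MEF-2 line 7 at 310 bp and of MEF-2 line 6 at 454 and 496 bp are the gains to 100.0%, 93.3% and 100.0%.

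Other genes had gains of the same size. The Neurog1 capital at 580 bp was methylated in 28 of 29 reads of MEF-1 line 7, against 2 of 28 in the parental library and at most 16.1% in the other MEF-1 lines (Fisher's exact test, adjusted p = 5.95e-10), and the CpGs 5 and 7 bp away were at 10.7% and 17.2%. The MEF-2 family was already methylated at 580 bp, at 53.5% in the parental library and from 40% to 100% in the lines. The Neurog1 capital at 502 bp was at 93.1% in MEF-2 line 4 and passed the test in 5 of the 7 MEF-2 lines. Within the Lhx2 coding exon, the CpG at 15570 bp was methylated in 31 of 31 reads of MEF-1 line 3 (parental 4 of 44, other MEF-1 lines at most 18.75%). It also gained in MEF-2 lines 1 and 4, within runs whose levels were 60.5% to 94.7% and 67.7% to 73.5%. The Lhx2 CpG at 15526 bp was at 96.4% in MEF-2 line 4. Nkx2-2 at -692 bp was methylated in 24 of 24 reads of MEF-2 line 1 (parental 3 of 26, other MEF-2 lines at most 12.0%). Gains also came in runs of neighbouring CpGs. With neighbours at most 50 bp apart, 66 runs of 2 or more CpGs gained in the same line were found over the 9 genes, of which 12 held 3 or more. In MEF-1 the runs of 2 or more took in 12.6% of the gains of the 9 genes, counted per line, against 11% over the table, and in MEF-2 25.7% against 18.5%. Runs of 3 or more took in 3 of 231 gains in MEF-1, a lower share than over the table (2339 of 148216). In MEF-2 they took in 38 of 467, a higher share than over the table (13481 of 303399). The shares were not matched for the spacing of CpGs or the rate of gains, so they do not set the 9 genes apart.

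Neurog1 held the longest run, of 5 CpGs, within the printed sequence and between its capitals. In MEF-2 line 5, 9 of the 13 measured CpGs from 502 to 580 bp gained. The CpGs at 561, 566 and 573 bp stood at 87.5% (21 of 24 reads), 95.65% (22 of 23 reads) and 62.5% (15 of 24 reads) in that line, against 15.6%, 32.6% and 15.2% in the parental library. Those at 528, 532, 538 and 544 bp stood at 56.7%, 55.6%, 55.6% and 59.3%, against 2.33% to 19.5% in the parental library. The other MEF-2 lines were at most 31.4% at these 4 sites, while at 566 bp they ran from 0% to 54.55%. In the intron of Neurod1, MEF-2 line 1 gained at 1491 and 1499 bp, 8 bp apart, to 94.7% and 92.1%.

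Over all single-line gains from a parental level under 10%, the median level reached was 47.9% at 76 CpGs of MEF-1 and 47.7% at 170 CpGs of MEF-2. Over all CpGs of the table the medians were 44.2% and 43.9%. In MEF-1 36 of the 76 ended between 40% and 60% (47.4%, against 47.5% over all CpGs) and in MEF-2 61.8% of the 170 did (against 50.6%). In each family 3 CpGs reached 90% (3.95%, against 0.720% in MEF-1, and 1.76%, against 0.929% in MEF-2). For the 71 MEF-1 gains with a measured neighbour within 50 bp, that neighbour had also gained in 4 (5.63%, against 9.85% for such gains over all CpGs) and was under 10% in 42 (59.2%, against 51.9%). Among the 163 in MEF-2 the neighbour had also gained in 33 (20.2%, against 15.2%) and was under 10% in 80 (49.1%, against 55.8%). Across all values of the clonal lines, 64.4% of the CpG levels in the 9 genes were under 10% and 3.88% were 90% or more, against 43.3% and 30.0% over the table, while 15.4% lay between 10% and 40%, against 8.80%.

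Whole islands that moved in 1 line were few, 1 of the 26 in each family. That count is too small to set against the shares over all islands. An island was called a single-line gain when a line stood at least 10 points above its parental library and above each other line of the family. This held for the Pax6 island from 5330 to 6027 bp in MEF-1 line 6, at 80.1% against 28.9% to 67.7% in the other libraries of the family (0.782% of all islands met the rule in MEF-1). It also held for the downstream Sox2 island in MEF-2 line 3, at 31.8% against 3.16% to 15.4% (1.76% of all islands in MEF-2). Both islands rest on 8 CpGs, and at a gain of 20 points none met the rule. No island of the 9 genes met the matching rule for a loss, which 0.215% of all islands met in MEF-1 and 0.483% in the other family.

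Pooled over the 9 genes, the level differed with where a CpG lies, but the classes hold different genes. Of the intronic CpGs 143 were of Nkx2-2, 140 of Lhx2 and 131 of Pax6, and of the coding CpGs 71 were of Sox2. In both parental libraries coding exons were below introns in Neurod1 and Nkx2-2 and above them in Pax6, Olig2 and, slightly, Neurog2. In Lhx2 they were below in MEF-1 and above in MEF-2. In the parental libraries the 305 CpGs in coding exons averaged 10.7% (MEF-1) and 9.79% (MEF-2) and the 217 in untranslated regions 11.9% and 8.91%. The 454 intronic CpGs averaged 22.6% and 17.8%, and the 141 upstream CpGs 22.9% and 18.01%. Between families the coding exons were 0.574 points apart in the lines and overlapped, while the introns were 4.86 points apart and did not. Introns of Nkx2-2 were higher in MEF-2. Those of the other genes with measured introns were higher in MEF-1, by 0.273 points (Neurog2) to 10.98 points (Lhx2). The 52 CpGs downstream of the genes were the furthest apart, at 27.98% ± 2.26 against 17.0% ± 2.41 without overlap. Of these, 28 belong to Sox2, where the difference was 24.5 points (MEF-1 minus MEF-2). The rest went the other way and overlapped, at -4.14 points in Sox1 (21 CpGs) and -9.34 points in Lhx2 (3 CpGs). The 32 CpGs of non-coding exons were 7.45 points apart and overlapped. Dense CpGs averaged 13.4% and 10.7% in the parental libraries and the sparser ones 23.0% and 17.9%; over the whole table the dense CpGs averaged 14.5% and 13.8% and the sparser ones 54.9% and 52.8%.

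Of 50 other neural developmental genes, 47 could be fitted and 30 passed the family test (background 44.5%), 16 higher in MEF-1 (background 29.1%) and 14 in MEF-2 (background 15.4%), with a median difference of 1.01 points over the 47 beside 3.64 over the 9 and 0.796 over all windows. Largest in either direction were Lmx1a, a factor of midbrain dopaminergic progenitors, at 59.0% ± 1.73 in MEF-1 against 25.6% ± 1.59 in MEF-2 (adjusted p = 5.92e-08), and Nkx6-1, a factor of ventral spinal cord progenitors, at 31.7% ± 4.51 against 68.3% ± 1.44 (adjusted p = 1.52e-07). By the root mean square difference over the 16 libraries, among the 9 genes and these 47, Pax6 and Lhx2 were each other's nearest, 2.12 points apart, and Lhx2 was also the nearest to Sox2 (2.30 points). Neurog2 was nearest to Neurod2 (1.59 points), Nkx2-2 to Lhx1 (1.87 points), Sox1 and Olig2 to Lhx5 (2.14 and 1.99 points), Neurog1 to Emx1 (2.31 points) and Neurod1 to Fezf2 (3.57 points). This likeness is a description of levels over the same libraries.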

How the data were processed

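Per the labels and the study's methods, the authors captured DNA with SureSelectXT Methyl-Seq probes, converted it with bisulfite, trimmed reads with Trim Galore 0.6.0, aligned them to mm10 with Bismark, dropped low mapping qualities and biased read ends, and deposited counts of methylated and unmethylated reads per CpG and library. The fraction methylated was also deposited by the authors in the series table; it was recomputed from the counts, and identical counts were found in the library tables at all 1203687 CpGs. Chromosomes 12, 18 and 19 and the X are absent from that table, which keeps CpGs with at least 10 reads in 16 libraries.

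The 9 genes, the lists and the tests were chosen with earlier results of these data known. Levels are methylated over total reads. Families were compared, 7 clonal lines each, with a quasi-binomial F-test (dispersion of at least 1) on each CpG, each CpG island and each gene window with at least 5 CpGs, adjusted (Benjamini-Hochberg) over all of each kind and called at 0.05. Islands were merged 200-bp windows of the GRCm38 sequence with a GC fraction of at least 0.5 and an observed to expected CpG ratio of at least 0.6. Lines were compared with their parental library by Fisher's exact test, two-sided. Named CpGs were the largest called differences and gains of each gene. Numbers of the lines do not pair the families: same-numbered lines correlated between -0.0227 and 0.0312. Simulated data were used to test the fits, with 200 of 13042 islands changed, in equal parts by 5 or by 10 points. At 5 points 4.0% were recovered and at 10 points 51.0%, and 3 unchanged islands were called. The changed islands were a far smaller share than was called in the data, so these rates do not carry over directly. Python 3.11.15, scipy 1.17.1, R 4.3.3 and limma 3.58.1 were used.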

Additional observations from a re-analysis of the deposited data

Results flagged for a closer look

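In 6 of 70 groups of 7 lines, the lowest or highest line lay far from the others of its family (by Dixon's criterion for the gap to the nearest line); chance picks about 1 in 20 groups. The low one was the Sox2 island over the coding exon in MEF-1 line 7, at 5.809% against 8.816% to 10.28% in the other 6. The high ones were the downstream Sox2 island in MEF-2 line 3 (31.81% against 3.163% to 15.43%), the Pax6 island from 3479 to 4010 bp in MEF-1 line 1 (16.32% against 6.523% to 10.54%), the Neurog1 island in MEF-2 line 5 (14.34% against 5.619% to 8.6%), the Nkx2-2 island over the annotated start in MEF-1 line 7 (15.59% against 5.535% to 8.462%) and the Nkx2-2 intronic island from 625 to 1200 bp in MEF-2 line 6 (16.47% against 5.446% to 9.491%). No cause was tested for these lines.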

How the results depend on the processing

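Leaving out single lines, breaking cores at gaps and cutting islands to the windows were alternatives chosen after seeing the data. With at least 20 reads per library, which leaves 431 of the CpGs and 15 islands, called CpGs numbered 100 instead of 243 (background 23.2%), called islands 4 instead of 11 (30.4%), of those fitted the upstream Sox2 island being lost (adjusted p = 0.241) and the coding island of Nkx2-2 passing (0.0491), and gained CpGs 95 (MEF-1, 12.8%) and 165 (MEF-2, 21.8%). Against the parental library of the other family, 392 CpGs gained in MEF-1 (background 21.4%) and 366 in MEF-2 (20.1%). With islands of at least 200 bp, 19 of 46 passed (background 40.7%) and 4 met the single-line rule; at a gain of 20 points 0 did. Cores under 20% held 238 CpGs. Directions turned in differences that had not passed on summed reads. With 20 reads these were the Neurog2 window (-0.1044 points, MEF-1 minus MEF-2), the Neurod1 window (-1.293), Pax6 island 5 (0.7689), Neurod1 island 3 (-1.293) and Lhx2 island 4 (4.143, and 3.131 without MEF-1 lines 1, 4 and 5). The Neurod1 window and island share 1 value, since the filter left the window 18 of its 37 CpGs. With 5 kb flanks the Neurog2 (-0.783) and Olig2 (0.539) windows turned. On mean levels, by permutation and limma, Neurog1 island 1 did (-0.1366). Without single lines, Pax6 island 5 ran from -1.097 to 0.182, Neurog1 island 1 from -0.465 to 0.9305, Neurod1 island 3 from -0.3155 to 1.499 and Lhx2 island 4 from -1.384 to 1.976. The cause was not tested.

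Without any 1 line, 223 to 238 CpGs (background 18.3% to 19.3%), 11 to 13 islands (30.8% to 32.8%) and 5 to 6 windows (41.5% to 43.0%) were called and no called island or window was lost. Without MEF-1 lines 1, 4 and 5, 176 CpGs (background 14.1%), 9 islands (24.0%) and 5 windows (34.3%) were, the Pax6 island from 3479 to 4010 bp (adjusted p = 0.132) and the upstream Sox2 island being lost. With the line number as a replicate block, which does not pair these lines, 219 CpGs (background 17.2%), 8 islands (28.1%) and 5 windows (39.1%) were called; the islands lost were the upstream one of Sox2 (adjusted p = 0.0761), that of Pax6 from 3479 bp (0.0538) and that of Lhx2 from 11461 bp (0.0513). The Neurod1 window passed by exact permutation (adjusted p = 0.00187), limma (0.000537) and 5 kb flanks (0.00418), and the upstream Olig2 island by exact permutation (0.0196), limma (0.0163) and without MEF-2 line 3 (0.0375) or 4 (0.0423). The upstream Nkx2-2 island passed without MEF-2 line 4 (0.0371), and the Neurog2 window without MEF-2 line 7 (0.0228). In simulated data 200 of 100000 CpGs were changed, in equal parts by 20 or by 40 points, a far smaller share than was called here. Of those changed by 40 points 26% were recovered, and of those changed by 20 points 1.0%.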

Other observations

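The islands over the starts of Lhx2 and Neurod1 held no CpG with 10 reads in all 16 libraries. Summed over all reads of the library tables, the Lhx2 start island was at 4.65% methylation in the MEF-1 lines (1936 reads, 95% Wilson interval 3.80% to 5.68%) and 5.45% in the MEF-2 lines (1762 reads, 4.48% to 6.61%), with parental libraries at 5.71% and 3.45%. The Neurod1 start island was at 8.63% in the MEF-1 lines (2713 reads) and 5.94% in the MEF-2 lines (2187 reads), with parental libraries at 8.76% and 8.24%. Of 2 Nkx2-2 islands covered in the same way, the one from 7536 to 8691 bp was at 7.79% and 11.6%, and the one from 12942 to 13613 bp at 42.3% (891 reads, 39.1% to 45.6%) and 18.4% (990 reads, 16.1% to 20.9%), with parental libraries at 23.0% and 14.7%. The intervals cover counting error only, and the CpGs behind these sums differ between libraries.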
